A study of Mus musculus with 24 samples.

Results

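Trained mice heterozygous for Baf53b were compared with trained wild-type mice in RNA from the dorsal hippocampus. The comparison took its 12 animals from the sample titles, 6 Baf53b+/- and 6 wild type, out of 24 in the series. Genes entered when their mean over the 12 libraries was at least 1 RPKM (a read density, corrected for the length of the gene and the depth of the library), which kept 12407 of the 19661 genes in the table and 99.51% of the RPKM. All 12 animals were killed 30 minutes after object location memory training, a task in which mice explore objects and later recognise one that has been moved. The wild-type animals have the strain background C57BL/6J. The heterozygotes have a background that the labels build from B6J, 129S6 and Actl6b<tm1Grc>, a targeted allele of Actl6b, the gene for BAF53b. The labels place the second strain, 129S6, in the heterozygotes alone, so strain background and the dose of BAF53b cannot be told apart in any genotype difference below. A further 12 animals, 6 of each genotype with the same backgrounds, came from the home cage and served here for a second look at the genotype difference. No age is given in the sources used here.

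BAF complexes are large assemblies that use ATP to slide or eject nucleosomes. As a cell becomes a neuron, some subunits are exchanged for neuronal relatives, and the actin-related subunit BAF53a, product of Actl6a, gives way to BAF53b. BAF53b is known for roles in dendrite growth, synapses and long-term memory, and object location memory depends on the dorsal hippocampus. In bulk tissue, fewer cells of a type and less RNA per cell cannot be told apart.

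Depth, recovered from the steps between low values, lay between 28.4 and 39.7 M reads in the trained libraries. Mean depth was 32.7 ± 2.02 M in heterozygotes and 33.9 ± 3.7 M in wild type (SD, n = 6 each). Both trained groups held 3 females and 3 males by their sex-linked transcripts, and the home cage heterozygotes 1 female and 5 males. Transcripts of the choroid plexus, the tissue that secretes cerebrospinal fluid, were high in 6 of the 24 libraries, judged by the choroid plexus transcript Ttr at over 10 times its median. These were the trained heterozygotes 2409 and 2429, the trained wild-type animal 2412, and 3 home cage animals. Of the libraries not counted among them, wild-type animals 2407 (288 RPKM of Ttr) and 2436 (185 RPKM) came closest, beside 1213 RPKM in the lowest of the 6. Hippocampal identity was plain in all 12 trained libraries. Summed over 9 markers each, CA1 stood at 223 to 328 RPKM and CA3 at 583 to 766, and 12 dentate gyrus markers summed to 177 to 274, with no marker of these lists at 0 in any trained library.

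Actl6b itself was the 1 gene of 12407 that passed the test, a share of 0.00806%. The heterozygotes ranged from 27.3 to 31.1 RPKM with a median of 27.7. The wild-type animals ranged from 46.4 to 54.4 with a median of 51.1. No animal of either group came near the other. The means were 28.3 ± 1.47 and 50.8 ± 2.65 RPKM (SD, n = 6 each), so that trained heterozygotes kept 55.7% of the wild-type level. The two-sided exact permutation test gave p = 0.00216, the smallest value that 6 animals against 6 can give. On the log2(RPKM + 0.5) scale used for all genes, Actl6b fell by 0.83 (SE 0.04, limma Benjamini-Hochberg adjusted p = 2.26e-13). Actl6b lies on chromosome 5 at 137994783 to 138010801 in mm9, the build of the deposited table, and the deposited RPKM covers the gene as a whole. Its upstream sequence is shown because Actl6b is the gene whose transcript changed. In the 250 bases before its RefSeq start, 3 copies of CCAAT on either strand are in capitals, a motif that 34.5% of 27025 RefSeq promoters hold at least once in a window of that length (GRCm38.p6, plus strand, chr5:137553296-137553545).

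Actl6b promoter: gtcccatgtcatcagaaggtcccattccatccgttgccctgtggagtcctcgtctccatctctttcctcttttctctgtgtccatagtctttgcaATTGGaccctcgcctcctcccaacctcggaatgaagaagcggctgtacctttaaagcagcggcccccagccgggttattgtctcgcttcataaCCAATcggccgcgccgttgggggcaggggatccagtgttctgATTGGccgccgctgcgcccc

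**Figure D1:**
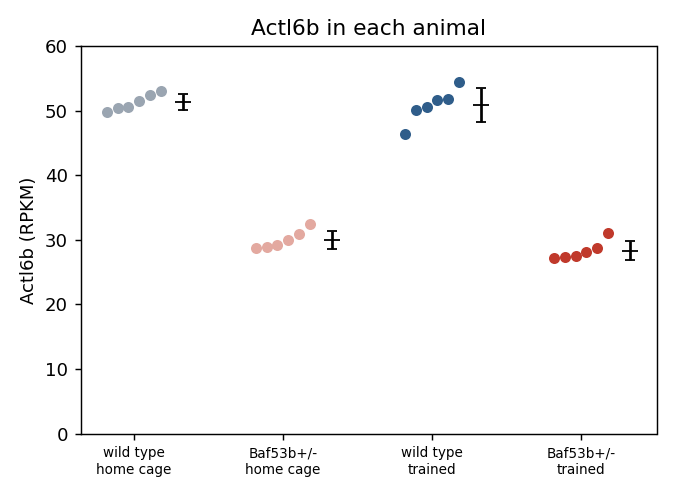
Actl6b level (RPKM) in each of the 24 animals by genotype and condition, with points for animals and bars for the mean and SD of 6 animals. After training the heterozygotes lie between 27.3 and 31.1 RPKM and the wild-type animals between 46.4 and 54.4.

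Beyond Actl6b, trained heterozygotes and trained wild-type mice differed little. The measurements were precise for most genes. The median standard error of a log2 difference was 0.053 and the median size of the difference 0.037. The folds that follow are on the log2 scale used for all genes. Its added constant makes them understate the change of low genes. For 12147 genes (97.9%) the 95% confidence interval of the difference lay within 1.5-fold in either direction, and for 10486 (84.5%) within 1.2-fold. Only 8 genes had an estimated difference over 1.5-fold on that scale, and of these Actl6b alone passed the test. The low gene Mylk3 was not among the 8, although its mean RPKM in trained heterozygotes was 177% of wild type. At an unadjusted p under 0.05 there were 460 genes (3.71%), 166 higher (1.34%) and 294 lower (2.37%) in heterozygotes. That count was 293 without wild-type animal 2421 and 702 without wild-type animal 2433. The groups did not overlap at all for 28 genes (0.226%), 7 higher (0.0564%) and 21 lower (0.169%). The filter split genes of nearly equal level: Gm12942, at a mean of 1.0002 RPKM, is the lowest gene kept, and Armc2, at 0.997, the highest left out.

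**Figure D2:**
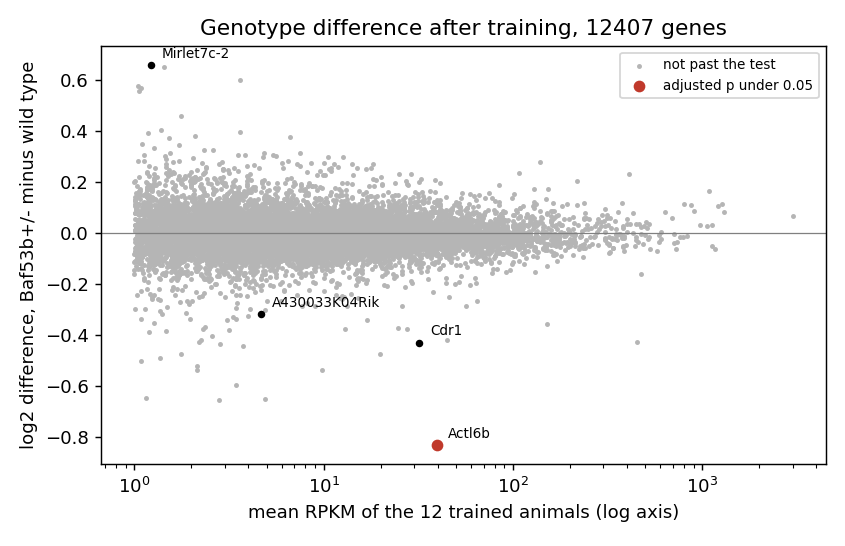
Log2 difference of Baf53b+/- minus wild type after training for each of 12407 genes against mean RPKM over the 12 trained animals (log axis). Actl6b, in red at -0.83, is the only gene past the threshold, and labelled black points are genes described in the text that did not pass.

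The gene next in rank, A430033K04Rik, stands 1.05 Mb from Actl6b at 139064087 to 139090054 (mm9). Heterozygotes ranged from 3.82 to 4.28 RPKM with a median of 4.13, and wild-type animals from 4.66 to 5.60 with a median of 5.28. The groups did not overlap. Its log2 difference was -0.32 (SE 0.06), and with limma the Benjamini-Hochberg adjusted p was 0.050037, just over the threshold of 0.05. It passed without wild-type animal 2421 or without any one of 4 home cage animals, 2400, 2401, 2405 and 2424, whose spread enters the same fit. Its promoter is shown beside that of Actl6b as the other transcript with separate groups near the targeted gene. It holds 2 copies of CCAAT in 250 bases (GRCm38.p6, plus strand, chr5:138622609-138622858). The promoter of Gnb2, a nearer gene described below, held 0 copies in a window of that length. Among 8896 tested genes with a RefSeq promoter, 36.2% held the motif. A link between the motif and the differences was not tested.

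A430033K04Rik promoter: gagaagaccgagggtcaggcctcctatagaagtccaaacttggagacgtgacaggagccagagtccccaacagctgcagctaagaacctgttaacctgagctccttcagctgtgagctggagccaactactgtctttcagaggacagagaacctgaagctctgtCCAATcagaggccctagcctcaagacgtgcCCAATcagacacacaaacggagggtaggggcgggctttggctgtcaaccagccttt

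Genes close to Actl6b on chromosome 5 had small differences more often than genes elsewhere. Within 15 Mb, without Actl6b, 27 of 268 tested genes (10.1%) were at an unadjusted p under 0.05, 14 higher and 13 lower, against 3.59% of the 11624 genes on other chromosomes and 2.92% of the 514 genes farther out on chromosome 5. None passed after adjustment. Within 1 Mb the count was 6 of 42 (14.3%), and within 5 Mb 8 of 116 (6.9%). Between 5 and 15 Mb it was 19 of 152 (12.5%), and between 15 and 30 Mb 5 of 149 (3.36%). After training the share thus did not fall steadily with distance. In the home cage it was 23.8% within 1 Mb and 12.9% within 5 Mb. It was 9.21% there between 5 and 15 Mb, 7.38% between 15 and 30 Mb and 3.23% on other chromosomes. When the 6 choroid plexus rich libraries were left out, the count after training within 15 Mb was 17 and that over all genes 422.

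The home cage animals gave an independent set of values for these neighbours, since the 2 genotype differences share no animal, though they share the estimate of the spread. Of the 27 genes within 15 Mb, 24 (88.9%) had the same sign in the home cage, against 254 of 417 (60.9%) on other chromosomes. Over all genes, whatever their p, 49.8% had the same sign in both conditions. In all, 30 genes besides Actl6b were at an unadjusted p under 0.05 with the same sign in both conditions, and 13 of them lay within 15 Mb of Actl6b, a window that holds 268 of the 12406 genes. No gene but Actl6b had non-overlapping groups in both conditions (0.00806% of genes).

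Genes close to Actl6b differed in direction among themselves. Those described here are the nearest pair, Trfr2 and Gnb2, and 3 more of small p (Agfg2, Zcwpw1 and 4933404O12Rik) out of the 42 tested within 1 Mb. Gnb2, a beta subunit of heterotrimeric G proteins whose gene lies 0.0203 Mb from Actl6b, ranged from 101 to 106 RPKM in heterozygotes (median 103) and from 105 to 116 in wild type (median 111). The ranges touched only at wild-type animal 2421, and the log2 difference was -0.11 after training and -0.11 in the home cage. Agfg2, a protein of the ArfGAP family, stood at 16.7 ± 0.432 RPKM in heterozygotes and 18.2 ± 1.31 in wild type, with differences of -0.12 after training and -0.13 in the home cage. Zcwpw1, a reader of histone methylation, went the other way, at 2.65 ± 0.39 against 2.22 ± 0.339 RPKM, with differences of 0.21 and 0.18. 4933404O12Rik was also higher in both conditions, at 4.02 ± 0.244 against 3.53 ± 0.361 RPKM after training (log2 difference 0.17) and 4.19 ± 0.208 against 3.39 ± 0.174 in the home cage (0.27). Trfr2, a transferrin receptor whose gene begins directly after Actl6b, had opposite signs, -0.13 after training and 0.28 in the home cage. Each of these SDs is over 6 animals, and none of the 5 genes passed limma in either condition (Benjamini-Hochberg adjusted p from 0.199 to 0.999). Of the genes that lie between Gnb2 and Agfg2 in distance, Gigyf1 differed by 0.07 after training, Mospd3 by -0.0071, Pcolce by 0.22 (SE 0.41) and Pop7 by -0.01, and none passed.

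**Figure D3:**
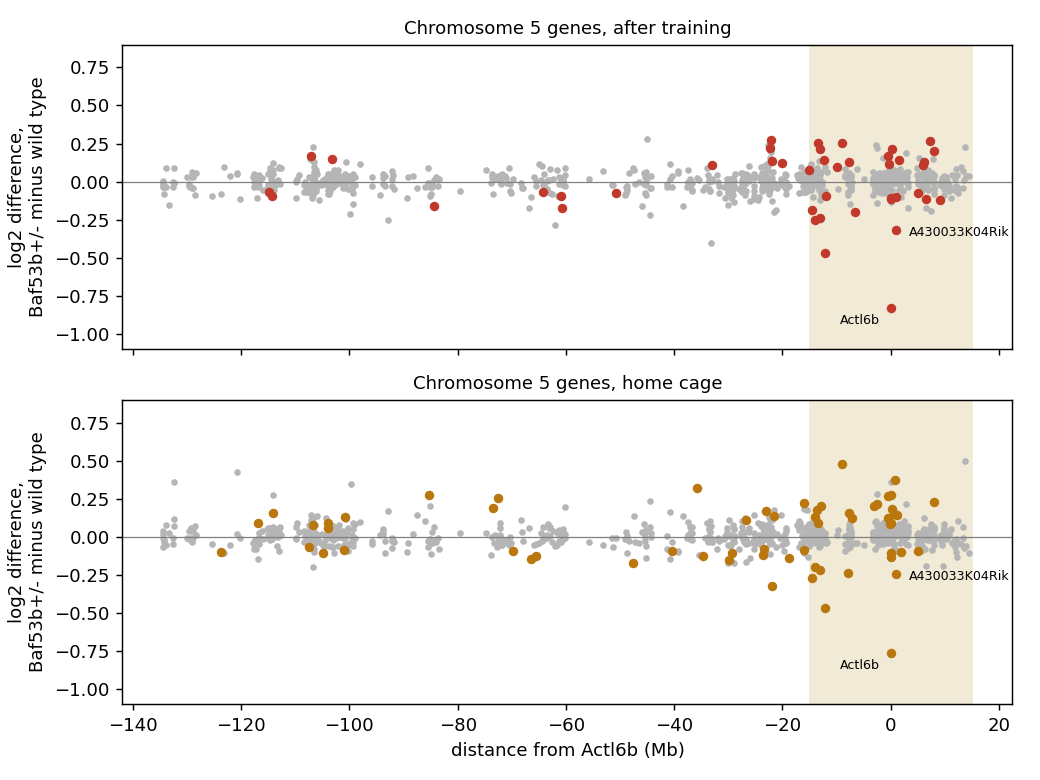
Log2 difference of Baf53b+/- minus wild type for genes of chromosome 5 by distance from Actl6b (Mb), after training (top) and in the home cage (bottom), with colour for an unadjusted p under 0.05 and shading for 15 Mb on either side. In the shaded window 27 of 268 genes besides Actl6b are coloured after training, and 29 in the home cage.

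At the far edge of the window, Tmed2 and Diablo had single animals whose level lay with the other genotype. Both genes were picked after their values were seen. Tmed2, a cargo receptor of the early secretory pathway 13.0 Mb from Actl6b, was at 3.21 RPKM in trained heterozygote 2409 and at 2.28 to 2.70 in the other 5. In trained wild-type animal 2407 it was 2.44, with 2.86 to 3.75 in the rest. In the home cage, heterozygotes 2401 and 2415 stood at 3.37 and 3.84 RPKM and the other 4 at 2.57 to 2.88, beside wild-type values of 3.20 to 3.84.

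The same 4 animals stood apart in the other gene. Diablo, a mitochondrial antagonist of inhibitors of apoptosis 14.0 Mb from Actl6b, was at 12.9 RPKM in trained heterozygote 2409 and at 10.4 to 11.1 in the other 5. In wild-type animal 2407 it was 10.7, with 12.4 to 15.9 in the rest. In the home cage, Diablo was 13.2 RPKM in heterozygote 2401, 12.2 in 2415 and 8.88 to 10.5 in the other 4, beside 11.1 to 13.8 in wild type. By Actl6b all 4 animals match their labels. The trained animals 2409 and 2407 were at 27.4 and 50.0 RPKM, and home cage heterozygotes 2401 and 2415 at 28.7 and 32.4. The log2 genotype differences after training were -0.24 (SE 0.09) for Tmed2 and -0.25 (SE 0.08) for Diablo, beside -0.22 and -0.20 in the home cage. Neither passed limma (adjusted p = 0.993 for each after training).

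**Figure D4:**
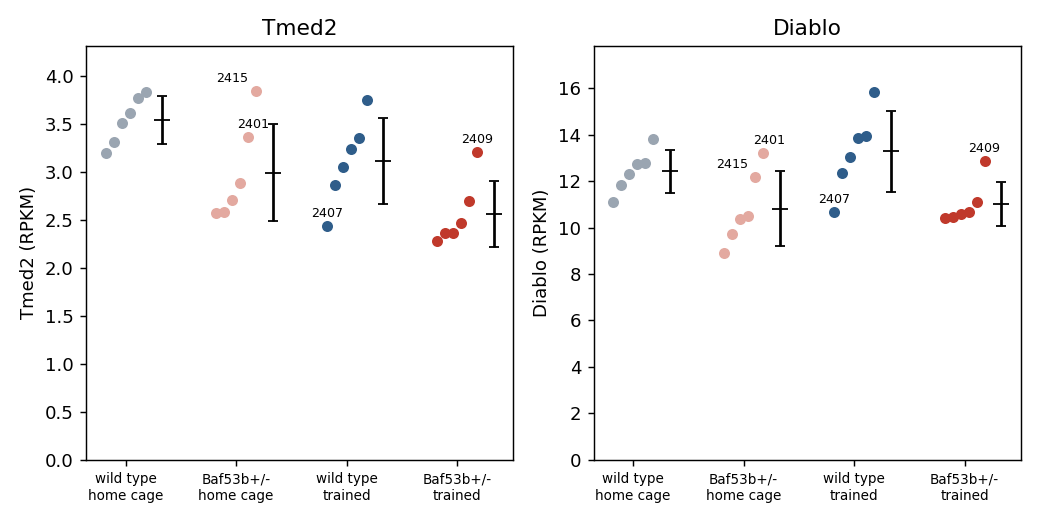
Level (RPKM) of Tmed2 and Diablo in each of the 24 animals by group, with bars for the mean and SD of 6 animals and the numbers of the 4 animals named in the text. Heterozygote 2409 lies above the other trained heterozygotes in both genes (3.21 and 12.9 RPKM), and animal 2407 below the other trained wild-type animals (2.44 and 10.7).

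Farther genes of the window, and the other genes of smallest p after training, also had modest differences. Cpsf4, a factor of mRNA cleavage and polyadenylation picked after its values were seen, was 7.42 ± 0.482 RPKM in heterozygotes and 6.44 ± 0.9996 in wild type, with a log2 difference of 0.20 after training and 0.23 in the home cage. Daglb, an enzyme that makes the endocannabinoid 2-AG, was 12.2 ± 0.405 against 11.1 ± 0.501 RPKM, and Pdgfa, a growth factor for oligodendrocyte precursors, 17.8 ± 0.412 against 16.1 ± 1.02. Their home cage differences were small, 0.04 each. Daglb and Pdgfa lie 6.21 and 1.44 Mb from Actl6b.

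Of the genes of smallest p on other chromosomes, several lay on X. Cdr1 ranged from 22.6 to 30.8 RPKM in heterozygotes (median 27.7) and from 31.5 to 50.0 in wild type (median 34.1), without overlap. Its log2 difference was -0.43 (SE 0.10) after training and -0.21 in the home cage. These libraries do not keep strand, so reads of Cdr1 and of a transcript antisense to it cannot be told apart. Pls3, an actin-bundling plastin, ranged from 70.6 to 74.6 RPKM in heterozygotes and from 75.7 to 87.7 in wild type, again without overlap, with a difference of -0.12, and its home cage difference was close to 0 (-0.0028). Arhgef6, an exchange factor for Rac and Cdc42, was 4.80 ± 0.315 against 5.60 ± 0.338 RPKM (difference -0.20) and differed by -0.14 in the home cage. Chromosome X had 28 of 416 tested genes (6.73%) at an unadjusted p under 0.05, chromosome 18 24 of 360 (6.67%) and chromosome 5 42 of 782 (5.37%), beside 3.71% of all genes. The other chromosomes ran from 2.33% to 4.83%. None of the 3 X-linked genes named passed limma (adjusted p = 0.993 each). Both trained groups had equal numbers of each sex, and with sex in the fit the log2 differences were -0.43 for Cdr1, -0.12 for Pls3 and -0.20 for Arhgef6.

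Autosomal genes of small p were Gpx7, a glutathione peroxidase relative, at 1.68 ± 0.187 RPKM in heterozygotes and 2.12 ± 0.209 in wild type, Nucks1, a nuclear DNA-binding phosphoprotein, at 20.1 ± 0.8 and 22.2 ± 0.909, and Mylk3, a myosin light chain kinase, at 1.33 ± 0.163 and 0.752 ± 0.297. Their log2 differences after training were -0.27, -0.14 and 0.58, beside -0.07, -0.04 and 0.14 in the home cage. Mylk3 is a low gene, and the scale understates the change of such genes. Its wild-type mean lies under the filter of 1 RPKM, which it passed through the heterozygotes alone, so it could enter only by being higher there. With limma the adjusted p was 0.993 for each of these genes after training.

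Mirlet7c-2, a let-7 microRNA precursor on chromosome 15, had the third smallest p. Heterozygotes ranged from 0.958 to 2.18 RPKM with a median of 1.57, and wild-type animals from 0.280 to 1.21 with a median of 0.827. The 4 highest values were heterozygotes, and the ranges overlapped. The trained wild-type mean, 0.834 RPKM, lies under the filter, which the gene passed through the heterozygotes (mean 1.60). The log2 difference was 0.66 (SE 0.15, adjusted p = 0.993 with limma), and in the home cage it was -0.07. The entry spans 95 bases, so that its RPKM rests on an estimated 0.92 to 7.5 reads in a trained library. The mature arms of this precursor are shown since let-7c is known by its seed, bases 2 to 8 in capitals, which decides most target pairing. The RPKM does not measure the mature arms. The sequences are from RefSeq (GRCm38.p6).

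mmu-let-7c-5p: uGAGGUAGuagguuguaugguu
mmu-let-7c-2-3p: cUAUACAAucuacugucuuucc

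Other subunits of the BAF complex did not move with Actl6b. Of 29 listed subunits, all tested, Actl6b was lower and 28 did not pass. The 29 differences ran from -0.83, that of Actl6b itself, to 0.10. Their median, with Actl6b included, was 0.0027, beside -0.0044 over all genes. Actl6a, which encodes the subunit that BAF53b replaces, ranged from 3.98 to 4.86 RPKM in heterozygotes and from 3.58 to 4.91 in wild type, ranges that overlap almost wholly. Its difference was 0.07 with a 95% interval from -0.07 to 0.22. The ATPase gene Smarca4 was 34.8 ± 0.877 against 34.1 ± 1.22 RPKM (interval from -0.03 to 0.10), and Arid1a, a subunit of the canonical BAF form, 20.7 ± 1.11 against 19.7 ± 1.45 (interval from -0.02 to 0.17). Dpf1, another subunit of the neuronal complex, was 16.7 ± 0.732 against 17.0 ± 0.589 (interval from -0.10 to 0.05). Among 46 other chromatin regulators none passed and 2 (4.35%) were at an unadjusted p under 0.05, a share near the 3.71% of all genes.

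Genes tied to BAF53b in cultured neurons did not pass either. At an unadjusted p under 0.05 there were 0 of 3, beside 3.71% of all genes. Stmn2, a regulator of microtubules in growing neurites, ranged from 149 to 176 RPKM in heterozygotes and from 165 to 190 in wild type, with a log2 difference of -0.11. Gap43, a growth cone protein, ranged from 45.4 to 70.7 RPKM in heterozygotes and spread wider in wild type, from 45.1 to 106, with a difference of -0.27 and an interval from -0.70 to 0.17. Ngef, an exchange factor in growth cone turning picked after its values were seen, was 35.2 ± 2.56 against 33.6 ± 2.40 RPKM (difference 0.06).

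The immediate early genes that neurons switch on when they fire stood at like levels in the 2 trained genotypes, 30 minutes after training. Of 66 listed, 62 were tested and none passed, and 1 (1.61%) was at an unadjusted p under 0.05, beside 3.71% of all genes. The median difference was -0.010, with 25 positive, beside 46.7% positive over all genes. Fos, a transcription factor used as a marker of activity, ranged from 10.8 to 15.5 RPKM in heterozygotes with a median of 12.6, and from 11.0 to 23.4 in wild type with a median of 12.8. The heterozygote range lay inside the wild-type range but for its lowest animal. The log2 difference of Fos was -0.14 with a 95% interval from -0.52 to 0.24, which is wider than for most genes. Arc, which acts in synaptic receptor traffic, ranged from 107 to 139 RPKM in heterozygotes (median 131) and from 82.7 to 172 in wild type (median 120), with an interval from -0.25 to 0.35. The zinc finger factor Egr1 was 102 ± 7.94 RPKM in heterozygotes and 105 ± 9.56 in wild type (interval from -0.19 to 0.10).

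Npas4, a factor specific to neuronal activity, was low and scattered at 4.21 ± 1.32 RPKM in heterozygotes and 4.62 ± 2.18 in wild type. Its interval ran from -0.56 to 0.41. The nuclear receptor Nr4a1 stood at 48.9 ± 4.17 and 47.5 ± 8.46 RPKM, the AP-1 member Junb at 49.1 ± 3.48 and 48.9 ± 8.93, and the MAP kinase phosphatase Dusp1 at 11.8 ± 1.93 and 12.5 ± 2.73. Bdnf, a neurotrophin, was 10.8 ± 0.390 RPKM in heterozygotes and 10.8 ± 1.22 in wild type. The member of smallest p was Nptx2, a pentraxin that clusters AMPA receptors, at 12.9 to 17.9 RPKM in heterozygotes and 9.98 to 16.3 in wild type, with a difference of 0.27 after training and -0.02 in the home cage. Nptx2 lies on chromosome 5, 7.30 Mb from Actl6b.

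Wild-type animal 2436 set much of the upper end of the early genes. It had the highest level of the 12 trained animals in 27 of the 62 early genes, with Fos at 23.4 RPKM beside 11.0 to 13.9 in the other 5 wild-type animals. The next most frequent was wild-type animal 2421 with 14 genes, and no heterozygote led in more than 4. Without animal 2436 the median of the 62 differences was 0.027 with 41 positive, and the differences of Fos (0.0097), Egr1 (0.0046), Npas4 (0.11) and Dusp1 (0.026) were positive in place of negative. None passed in either case. The sign of the Fos and Dusp1 differences rests on that animal alone among the 24, while that of Egr1 also turned without heterozygote 2409 (0.0056), and that of Npas4 without wild-type animal 2412 or heterozygote 2416 or 2435 (at most 0.017).

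The Fos promoter is shown as the start of an early gene whose level was higher after training in both genotypes. Mean Fos was 12.6 RPKM in trained and 1.86 in home cage heterozygotes, and 14.3 and 1.89 in wild type. The difference between conditions was not tested here. In 250 bases upstream, the promoter holds 2 copies of TGACG, the core of the element bound by CREB, in capitals on either strand (GRCm38.p6, plus strand, chr12:85473640-85473889). Of the early genes tested with a RefSeq promoter, 25 of 46 (54.3%) hold TGACG, beside 27.7% of 8896 tested genes and 17.9% of all 27025 promoters. A link between this motif and the levels was not tested.

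Fos promoter: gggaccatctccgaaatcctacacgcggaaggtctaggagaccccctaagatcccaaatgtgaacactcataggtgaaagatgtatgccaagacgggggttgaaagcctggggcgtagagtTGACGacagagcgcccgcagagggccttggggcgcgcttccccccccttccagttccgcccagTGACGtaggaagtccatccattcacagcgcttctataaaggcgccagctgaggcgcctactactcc

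**Figure D5:**
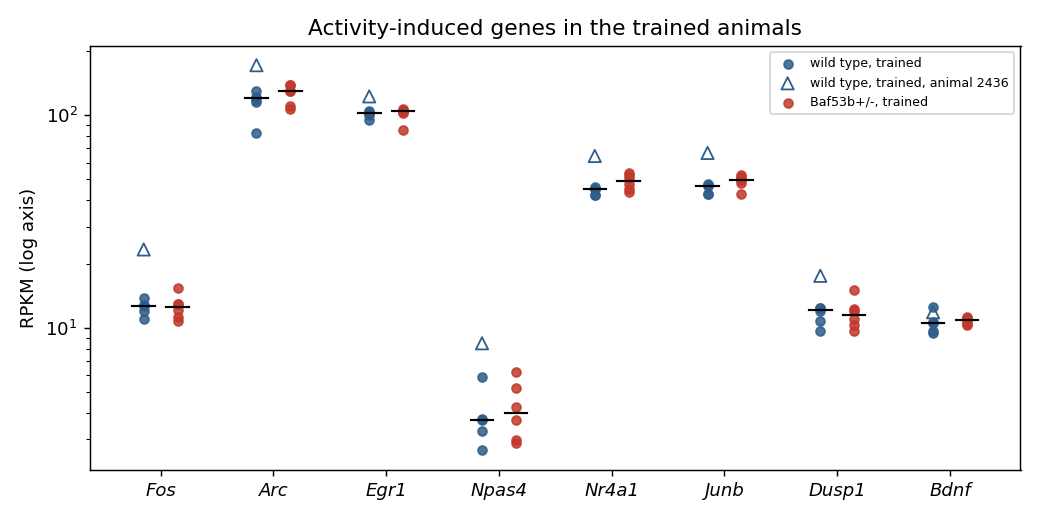
Level (RPKM, log axis) of 8 activity-induced genes in the 12 trained animals, with points for animals, an open triangle for wild-type animal 2436 and a line for the median of 6. The genotypes overlap for every gene, and animal 2436 is the highest for Fos at 23.4 RPKM and for Egr1 at 123.

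The synaptic and neuronal lists had no member past the limma test, and at an unadjusted p under 0.05 there were 2 presynaptic and 2 channel genes and 0 in the other 3 lists, beside 3.71% of all genes. They covered 48 excitatory postsynapse genes (median difference 0.020, 27 positive), 48 presynaptic release genes (-0.026, 17 positive), 48 actin and spine genes (0.018, 28 positive), 46 voltage-gated channels (0.015, 29 positive) and 13 GABA receptor subunits (0.0046, 8 positive). For 47 of the 48 postsynaptic genes, 47 presynaptic genes and all 48 actin genes the 95% interval lay within 1.5-fold on the log2 scale. Gabra2 and Nnt are known to be lowered in C57BL/6J relative to other strains by deletions in that line. Gabra2, a GABA receptor subunit, was 18.7 ± 1.04 RPKM in heterozygotes and 20.2 ± 2.12 in wild type (difference -0.10). Nnt, a mitochondrial transhydrogenase, was 4.14 ± 0.261 against 4.08 ± 0.231 (difference 0.02). The ranges of the genotypes overlapped for both genes.

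One further list leaned to one side without any member passing. Of its genes, 1 (3.45%) was at an unadjusted p under 0.05, beside 3.71% of all genes. Of the differences of all genes, 46.7% were positive. Among 29 heat shock and endoplasmic reticulum chaperones 27 differences were negative, with a median of -0.052, led by Xbp1, a factor of the unfolded protein response, at 26.7 ± 1.87 RPKM in heterozygotes and 29.4 ± 2.66 in wild type. The median was -0.026 without wild-type animal 2421, and in the home cage it was -0.012. Of 18 interferon-stimulated genes in the table only 9 reached the filter, so no direction is read from this list, of which none passed the test. Its member of smallest p was Irf7, a factor of the interferon response, at 1.31 ± 0.421 against 0.938 ± 0.140 RPKM, a gene that passed the filter through the heterozygotes alone. Glucocorticoid-responsive genes (17 tested, median -0.0063), ribosomal proteins (62, -0.016) and respiratory chain genes (74, -0.016) lay near the median of all genes.

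Markers of cell types gave no member past the test in any list. At an unadjusted p under 0.05 there was 1 gene each among the interneuron, astrocyte, vascular and thalamic markers, and 0 in the other lists. In these short lists 1 gene is a share of 5.56% to 11.1%, beside 3.71% of all genes. Of the differences of all genes, 46.7% were positive. All 16 oligodendrocyte markers had positive differences, with a median of 0.095, and the myelin gene Mbp was 1141 ± 138 RPKM in heterozygotes and 1024 ± 182 in wild type. The 16 markers summed to 2119 to 3001 RPKM in heterozygotes and 1862 to 2921 in wild type, ranges that overlap, and without wild-type animal 2403 the median was 0.028 with 11 positive. Of 12 dentate gyrus markers 10 were positive (median 0.16, and 0.069 without wild-type animal 2421). Their sums were 200 to 274 RPKM in heterozygotes and 177 to 262 in wild type. Interneuron markers leaned lower, with 12 of 16 negative and a median of -0.062. Their sums, 1200 to 1333 RPKM in heterozygotes and 1228 to 1360 in wild type, overlapped. The serotonin receptor Htr3a of that list had groups that did not overlap, at 3.70 to 4.27 and 4.33 to 5.81 RPKM, as did 0.226% of all genes. In the home cage the median differences were -0.0043 for oligodendrocyte, -0.14 for dentate gyrus and 0.028 for interneuron markers, each opposite in sign to that after training.

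Among 14 astrocyte markers 10 were negative (median -0.024). The water channel Aqp4 was the exception in size, at 42.3 to 45.6 RPKM in heterozygotes and 35.7 to 42.2 in wild type, without overlap, with a log2 difference of 0.20 after training and 0.01 in the home cage (adjusted p = 0.993 with limma after training). Microglia markers stood near 0 (10 of 14 positive, median 0.010). Vascular markers leaned higher, with 15 of 18 positive and a median of 0.051, beside 0.012 in the home cage. Of regional lists, CA1 markers had a median of -0.075 (9 genes), CA3 0.015 (9), cortex -0.079 (6), striatum 0.023 (8) and thalamus -0.0057 (9). Their home cage medians were 0.12 for CA1, -0.096 for CA3, 0.058 for cortex, 0.12 for striatum and 0.094 for thalamus. After training the median was -0.0012 for 10 excitatory neuron markers and 0.010 for 7 markers of immature or dividing cells. Choroid plexus markers summed to 78.0 to 2853 RPKM in heterozygotes and 93.6 to 1712 in wild type, with a median difference of 0.19 that was -0.34 without the choroid plexus rich libraries. Meningeal and fibroblast markers had a median of 0.20 that was -0.029 without those libraries. With single libraries left out, their median stayed between 0.102 and 0.301, while that of choroid plexus markers ran from -0.242 to 0.489. In the home cage the medians were 0.0085 for meningeal and fibroblast markers and 0.763 for choroid plexus markers. Of 5 blood markers 2 were in the table, and they summed to under 3 RPKM in each trained library, with Hbb-b2 at 0 in some. The part of cell composition in the differences above was not tested.

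The genotype difference was then set beside that of the home cage. There Actl6b also was the only gene that passed (0.00806% of 12407), at 30.0 ± 1.44 RPKM in heterozygotes and 51.3 ± 1.26 in wild type, a log2 difference of -0.76. At an unadjusted p under 0.05 there were 438 genes (3.53%), 258 higher (2.08%) and 180 lower (1.45%), and the groups did not overlap for 8 genes (0.0645%). The interaction, which asks whether the genotype difference after training differs from that in the home cage, gave 0 called genes with limma (0%) and 309 at an unadjusted p under 0.05 (2.49%). For Actl6b the interaction was -0.07 (SE 0.05). The smallest p in the interaction was that of Agxt2l1, a phospholyase gene, at 3.10 ± 0.782 RPKM in trained heterozygotes and 4.35 ± 0.681 in trained wild type, and at 4.86 ± 0.667 and 3.62 ± 0.700 in the home cage. Its differences of -0.44 and 0.39 gave an interaction of -0.83 (SE 0.18, adjusted p = 0.985).

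Averaging the genotype difference over both conditions, a fit added after the data were seen, called 3 genes (0.0242%), all on chromosome 5, with 559 genes (4.51%) at an unadjusted p under 0.05, 251 higher (2.02%) and 308 lower (2.48%). Actl6b fell by 0.80 (SE 0.03). A430033K04Rik fell by 0.28 (SE 0.04, adjusted p = 0.00161 with limma), and 4933404O12Rik rose by 0.22 (SE 0.04, adjusted p = 0.0197). A430033K04Rik no longer passed without the choroid plexus rich libraries, where Tmem132d, 9.06 Mb from Actl6b, was called. The call of 4933404O12Rik ended there too, under quantile normalization, and without wild-type animal 2402, 2403, 2412, 2418 or 2425 or home cage heterozygote 2424.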

How the data were processed

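RNA from bilateral dorsal hippocampus, 1 library per animal, was sequenced from unstranded TruSeq v2 libraries. The authors deposited RPKM values per gene and animal with mm9 positions. The submitters' processing notes name CASAVA 1.8.2, Bowtie 0.12.8 and mm9, without roles. The sources used here do not state the annotation, the treatment of reads shared by overlapping or near-identical genes, or the multiplex pool of each animal, and no batch term was fitted. Animal numbers name separate samples.

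Depth was recovered from 562 single-exon genes: whole reads (within 0.05) made up 70.4% to 79.4% of their values at the chosen total, against a median of at most 7.27% over other totals. RPKM is not counts and most genes have several exons, so no count test was run, and the pseudocount of 0.5 shrinks the change of low genes. The log2 of RPKM plus 0.5 was fitted with limma 3.58.1 in R 4.3.3, the 4 groups in 1 model over 24 libraries with trended, robust empirical Bayes variances, and a Benjamini-Hochberg adjusted p under 0.05 was called. Fits were tested on simulated data.

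The comparison, its gene lists (32 with the marker lists, no set test) and the 15 Mb window were chosen with earlier results of these data known. Genes are named by a rule: Actl6b, genes that passed and 10 more by p, BAF subunits, up to 2 per list by p where none passed, 8 early genes, tested genes within 1 Mb of Actl6b and up to 5 by interaction p. Others are said to be picked after their values were seen. Table entries with names turned into dates (18) or repeated (17) stayed in under their positions. Alternatives were other pseudocounts, filters, centring, variance models, covariates, windows and leaving out libraries. Some genes are not reported here.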

Additional observations from a re-analysis of the deposited data

Results flagged for a closer look

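Of 86 groups of 6 trained animals examined (43 genes in each genotype), 15 held an animal far from the other 5 by Dixon's test, which chance alone flags in about 1 of 20 groups. The genes share animals, so these flags are not independent. Many of the genes were chosen by their values in these data, Diablo among them, so the share flagged by chance need not apply to them.

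Wild-type animal 2436 stood apart in 6 genes. It was at 23.4 RPKM for Fos beside 11.0 to 13.9 in the other 5, at 123 for Egr1 beside 95.1 to 105, at 64.5 for Nr4a1 beside 42.1 to 46.2, at 66.6 for Junb beside 42.8 to 47.4 and at 17.6 for Dusp1 beside 9.67 to 12.5. It was also at 1.72 RPKM for Gpx7, below 2.14 to 2.35 in the others.

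Wild-type animal 2421 was the highest for Pls3 (87.7 RPKM beside 75.7 to 79.7), Smarca4 (36.5 beside 33.04 to 34.0), Xbp1 (34.5 beside 27.4 to 29.7), Htr3a (5.81 beside 4.33 to 4.61) and Agxt2l1 (5.65 beside 3.78 to 4.37).

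Heterozygote 2409 was at 12.9 RPKM for Diablo beside 10.4 to 11.1 and at 85.7 for Egr1, below 102 to 107. Among the other heterozygotes, 2414 was at 0.738 RPKM for Trfr2 (1.13 to 1.24 in the rest) and 2429 at 70.6 for Pls3 (73.1 to 74.6).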

How the results depend on the processing

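Actl6b was called after training under every alternative, with a log2 difference of -0.86 to -0.81 and a difference of means of -23.4 to -21.8 RPKM when single libraries were left out. Genes called after training numbered 2 in place of 1, and called genes within 15 Mb of Actl6b 1 in place of 0, with a pseudocount of 1, median centring, empirical Bayes without trend or robust settings, or array weights. With single libraries left out these counts ran from 1 to 2 and from 0 to 1. The added gene was A430033K04Rik each time. The home cage count stayed at 1 and the interaction count at 0 in the 24 fits that leave out 1 library. Averaged over conditions, 2 to 4 genes were called in those fits, 5 with no filter and 1 at a mean of 5 RPKM or more, where both other genes fall below the filter. Near Actl6b, 23 to 32 genes were at an unadjusted p under 0.05 with single libraries left out, 17 without the choroid plexus rich libraries and 8 in a window of 5 Mb. Signs reversed without the choroid plexus rich libraries for Egr1 (0.0045), Bdnf (-0.032) and Nnt (-0.019). With single libraries left out, the difference ran from -0.057 to 0.15 for Arc, -0.024 to 0.055 for Bdnf, -0.15 to 0.026 for Dusp1, -0.069 to 0.0056 for Egr1, -0.20 to 0.0097 for Fos, -0.013 to 0.11 for Junb, -0.0010 to 0.044 for Nnt and -0.19 to 0.11 for Npas4. The cause was not tested. The other 35 of 43 genes described kept their sign. No paired analysis was possible because the animal numbers in the labels are unique to each group. Low genes rest on few reads, and depth limits them most.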
